A study of Mus musculus with 6 samples.

Results

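Described here are 43 genes of DNA replication and mitosis, measured in splenic CD8+ T cell RNA of mice on either of 2 diets. They were taken by symbol from a fixed list, 18 that act around the G1/S transition and in S phase and 25 that act in G2 and mitosis, out of 19323 genes in the deposited table. All 43 were found there, and all 43 passed the filter on low values that left 13430 genes to test. The wild-type C57BL/6 mice were 6 weeks of age at the start and then received ND or MCDHFD for 7 weeks, with 3 libraries per diet. ND and MCDHFD are the labels' own names for the diets, and the labels treat the mice as models of MASH, a liver disease of fat and inflammation. Both groups gave primary CD8+ T cells of the spleen, total RNA extracted with TRIzol, and libraries from either a whole-RNA or an mRNA kit. The labels do not say which kit each library had, how the cells were isolated, or whether each library came from its own animal. P-values therefore reflect no more than the spread among these 6 samples, and that spread may be technical.

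A resting T cell holds few transcripts of the cell division machinery, and an activated one builds it up in sequence. Cyclin E and the E2F factors open S phase, the MCM helicase and its partners unwind DNA at licensed origins, and the sliding clamp and the nucleotide enzymes serve the copying. Cyclin A, cyclin B and CDK1 then drive the cell into mitosis, where kinases, motors and centromere proteins build the spindle and the anaphase-promoting complex ends it. Many of the early genes are known targets of E2F, and many of the late ones carry promoter elements called CHR and CCAAT boxes.

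Library totals of normalized counts lay between 14119816 and 14752121. Correlations of log2 values ran from 0.985 to 0.988 within a diet and from 0.896 to 0.916 between diets. The labelled cell type was present by its markers in all 6 libraries, with Cd8a at 13784 ± 350.4 normalized counts in ND and 5264 ± 458 in MCDHFD (mean ± SD, n = 3) and Cd3e at 3670.4 ± 177 and 1840.3 ± 140.1. All 16 of 16 CD8 T cell markers were lower in MCDHFD, with summed levels of 99317 to 100975 in the ND libraries against 54032, 48006 and 48472 in the MCDHFD libraries. Markers of other kinds of cell were present too, and whether those cells divide was not tested. The erythroid list rose in 22 of 22 genes, from sums of 4371 to 4597 in ND to 19537, 30637 and 29814, and the immature neutrophil list in 14 of 14, from 894 to 1699 to 11532, 19628 and 16438. In the macrophage and monocyte list 13 of 16 rose and 2 fell (49508 to 58330.3 against 220899.7, 266661 and 271677), and B cell markers fell in 10 of 10 (6496 to 8324 against 1626, 2076 and 2002). Of these lists, 1 defining marker was at 0 in all ND libraries, the neutrophil precursor gene Ms4a3. Germinal centre markers rose in 2 and fell in 2 of 6 tested genes, with Rgs13 at 0 to 1.95 normalized counts and the sums of the list at 1490.3 to 1566 against 1253, 1379.9 and 1462. Plasma cell markers rose in 4 and fell in 1 of 8 tested (4883 to 5738 against 5051, 7414 and 6844), and progenitor markers rose in 1 and fell in 3 of 6 tested (2395 to 2661 against 1294, 1212 and 1246). The part of any of these cells in the results below was not tested. In RNA from bulk samples, fewer cells of a type and less RNA per cell cannot be told apart.

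More of the cell cycle genes were higher than lower in MCDHFD. At a limma adjusted p under 0.05, 22 of the 43 rose, 4 fell and 17 did not pass, where 30.3% of all tested genes rose and 28.1% fell (58.4% in either direction). Their median log2 fold change was 0.37, beside 0.00 for all tested genes, and 34 of the 43 estimates were above 0. The 3 MCDHFD libraries did not overlap the 3 ND libraries in 27 of the 43 (65.4% of all tested genes), 23 higher (33.2% of all tested genes) and 4 lower (32.3%). A rise of at least 2-fold was called for 9 members, against 13.1% of all tested genes, and a fall of that size for 1, against 7.66%. By phase, 8 of 18 G1/S genes rose and 3 fell, with a median of 0.24, and 14 of 25 G2/M genes rose and 1 fell, with a median of 0.48. The G1/S median was 0.51 without MCDHFD replicate 1, where that of G2/M was 0.55, and 0.13 without ND replicate 3, MCDHFD replicate 2 or MCDHFD replicate 3, each left out alone. It was 0.06 under quantile scaling, and the difference between the phase medians was not tested. Counts by phase and by role stand beside the 30.3% of all tested genes that rose and the 28.1% that fell.

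**Figure D1:**
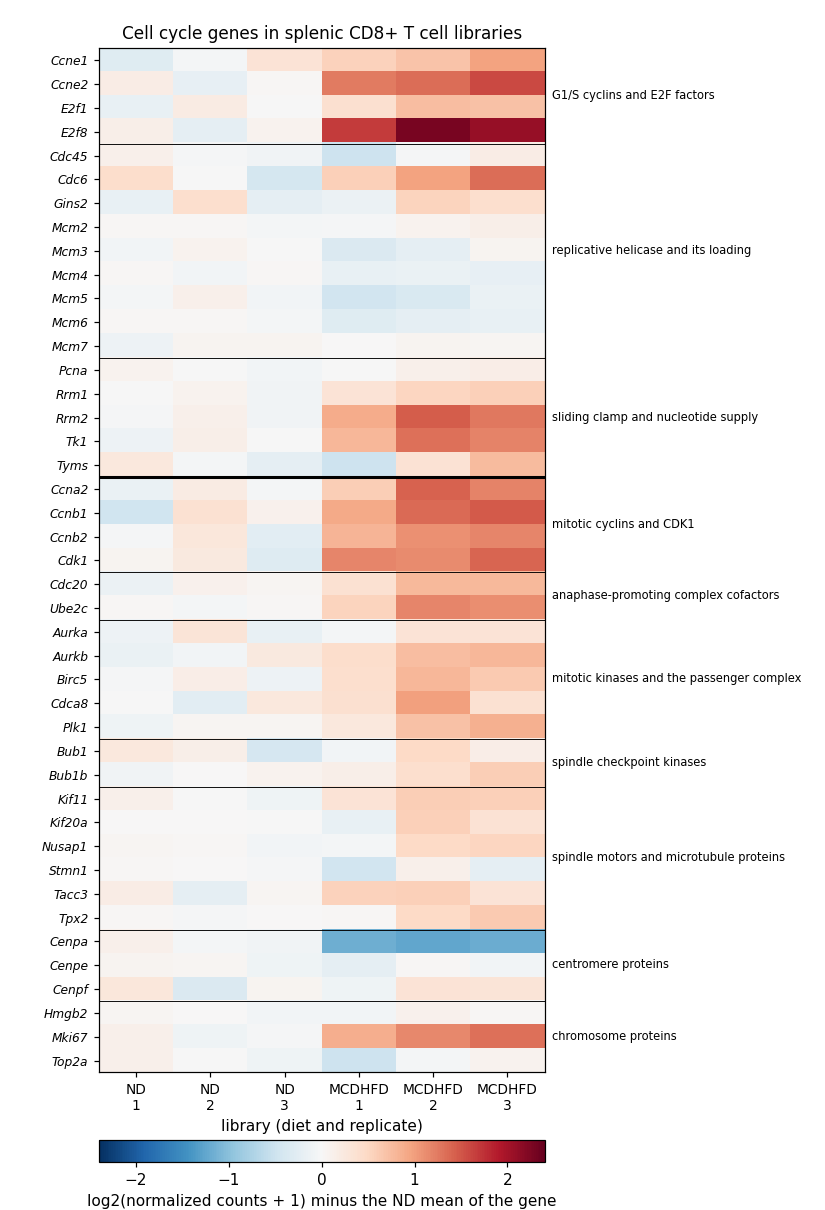
Heat map of the 43 genes (rows, in the order of their roles, with the thick line between G1/S and G2/M) in the 6 libraries (columns). Colour gives log2(normalized counts + 1) minus the ND mean of the gene. E2f8 is the darkest red row in MCDHFD and Cenpa the darkest blue one, and the MCDHFD replicate 1 column is paler than the columns of replicates 2 and 3.

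MCDHFD replicate 1 stood apart within its diet. It held the lowest of the 3 MCDHFD values in 38 of the 43 genes (88.4%), against 38.2% of all tested genes. Across the members its log2 values lay a median of 0.35 below the mean of the other MCDHFD libraries, and 41 of 43 were below that mean, while its median difference over all tested genes was near 0. The same library had the lowest MCDHFD sum of the erythroid, immature neutrophil and macrophage markers, and also of the B cell, germinal centre and plasma cell markers. Its sums of the CD8 T cell and progenitor markers were the highest of the diet, as the values above show. Without MCDHFD replicate 1, 26 members rose and 4 fell, where Tyms, Kif20a, Nusap1 and Tpx2 joined those that rose and no call was lost. Without MCDHFD replicate 2, 20 rose and 5 fell, and without MCDHFD replicate 3, 21 rose and 4 fell. As replicate 1 was picked for its low values, some gain follows from leaving it out, also in the values given below without it. Leaving out each of the 6 libraries in turn kept 23 of the 26 calls in all 6 fits, with Mcm4, Cdca8 and Bub1b as the exceptions.

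All fold changes here rest on the authors' scaling. Rescaling the libraries to equal CD8 T cell markers shifted the whole transcriptome up, by 1.03 in the median log2 fold change. Under it 42 of the 43 estimates were above 0, the exception being Cenpa, and all 18 G1/S and 24 of the 25 G2/M genes were called higher, alongside 11195 of all 13430 tested genes. Relative to the median of all genes under that scaling, 34 members were above and 9 below. These are the numbers above and below 0 under the authors' scaling too. The rescaling moves all genes by nearly the same amount, so this match follows from its construction. Statements that a gene rose or fell are therefore relative to the transcriptome as a whole.

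**Figure D2:**
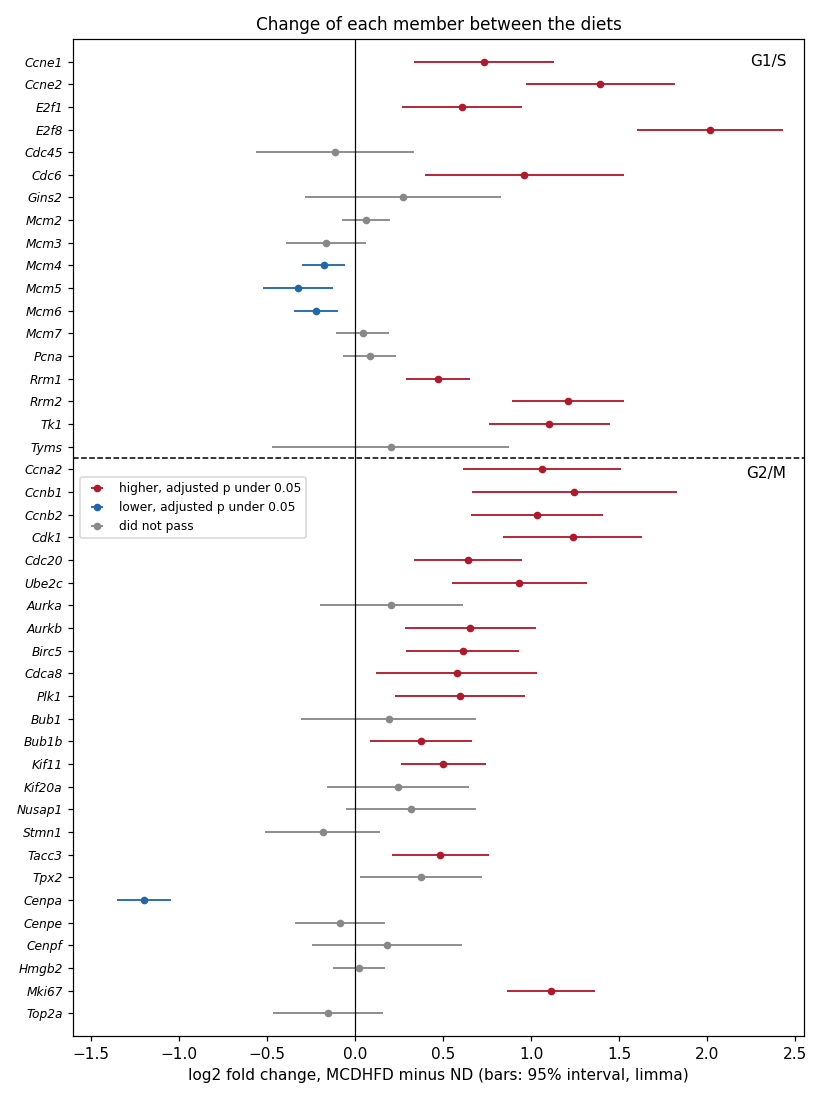
Log2 fold change of each member between the diets (x axis, MCDHFD minus ND), with 95% intervals from limma and genes in the order of their roles. Red marks the 22 genes called higher and blue the 4 called lower, and the 17 grey genes did not pass. The blue MCM genes are above 0 when the libraries are scaled to equal CD8 T cell markers.

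Promoters of 6 members whose values are given below are printed because, in S phase, they set genes that fell beside one that rose and, in mitosis, genes that rose beside one that did not pass. The letters are the 200 bases before the RefSeq start on GRCm38.p6, 5′ to 3′ on the gene's strand. Capitals mark 3 sets of letters searched on both strands: the E2F letters (TTTCCCGC, TTTCGCGC, TTTGCCGC or TTTGGCGC), the CHR letters (TTTGAA or TTCGAA, the latter its own reverse complement) and CCAAT. In Mcm5 and in Mcm6 a pair of E2F matches on opposite strands overlap and read as 1 run of capitals. The first 3 genes act in S phase and the last 3 in mitosis.
Mcm5 (chr8:75109309-75109508, plus strand): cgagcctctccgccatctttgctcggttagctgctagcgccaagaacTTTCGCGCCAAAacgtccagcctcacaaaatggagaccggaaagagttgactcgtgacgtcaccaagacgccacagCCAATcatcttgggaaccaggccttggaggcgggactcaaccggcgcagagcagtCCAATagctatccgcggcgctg
Mcm6 (chr1:128359706-128359905, minus strand): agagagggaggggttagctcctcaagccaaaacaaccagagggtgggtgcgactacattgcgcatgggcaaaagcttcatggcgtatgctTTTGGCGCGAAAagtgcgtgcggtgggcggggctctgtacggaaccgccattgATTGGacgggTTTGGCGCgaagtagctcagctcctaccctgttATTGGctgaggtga
Rrm2 (chr12:24708054-24708253, plus strand): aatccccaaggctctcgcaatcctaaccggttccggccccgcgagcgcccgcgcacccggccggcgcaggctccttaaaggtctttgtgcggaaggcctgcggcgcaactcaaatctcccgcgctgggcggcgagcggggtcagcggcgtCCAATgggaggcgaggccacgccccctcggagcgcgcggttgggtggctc
Cdk1 (chr10:69352913-69353112, minus strand): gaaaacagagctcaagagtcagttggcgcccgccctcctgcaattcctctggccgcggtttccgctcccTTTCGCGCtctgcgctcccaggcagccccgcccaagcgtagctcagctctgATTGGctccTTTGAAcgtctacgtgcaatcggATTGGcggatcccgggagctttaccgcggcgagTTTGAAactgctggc
Mki67 (chr7:135716380-135716579, minus strand): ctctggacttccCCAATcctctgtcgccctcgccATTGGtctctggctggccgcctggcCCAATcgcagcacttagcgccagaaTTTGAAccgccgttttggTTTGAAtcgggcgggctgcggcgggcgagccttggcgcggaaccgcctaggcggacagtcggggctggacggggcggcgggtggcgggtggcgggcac
Top2a (chr11:99024190-99024389, minus strand): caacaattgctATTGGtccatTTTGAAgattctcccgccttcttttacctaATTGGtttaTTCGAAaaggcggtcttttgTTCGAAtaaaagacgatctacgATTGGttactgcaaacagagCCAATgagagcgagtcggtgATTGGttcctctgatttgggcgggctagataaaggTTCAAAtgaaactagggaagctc
Mcm5 and Mcm6, both lower in MCDHFD under the authors' scaling, hold E2F letters here and Rrm2, which rose, holds none. Mki67 and Cdk1 rose and Top2a did not pass, and all 3 hold CHR letters and CCAAT. The search itself ran over windows of 250 bases before to 50 after the start, of which the table has 32817 and 35 of the 43 members have at least 1. The shares of all windows count each window, while a member counts if any of its windows holds a match, so they are not in like units. E2F letters stood in 2.26% of all windows, in 5 of 15 G1/S members and in 1 of 20 G2/M members. Among the G1/S members they stood in both of the lower genes with a window, in 1 of the 7 that rose (Cdc6) and in 2 of the 6 that did not pass. CHR letters stood in 19.2% of all windows, 4 of 15 G1/S members and 15 of 20 G2/M members, and within G2/M in 9 of the 12 that rose, 5 of the 7 that did not pass and Cenpa, which fell. CCAAT stood in 37.4% of all windows, 10 of 15 G1/S and 17 of 20 G2/M members. These matches describe letters in a window and do not show that a factor binds there.

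The cyclins and factors that open S phase rose as a group, 4 of 4, with a median log2 fold change of 1.06. E2f8, an E2F family repressor that is itself induced in S phase, stood at 67.5, 52.5 and 65.3 normalized counts in the ND libraries and at 199, 303 and 265 in the MCDHFD libraries. Every MCDHFD library was thus well above every ND library, and the change was the highest of all members (log2 fold change 2.02, SE 0.18, limma adjusted p = 2.1e-05). Ccne2, which encodes cyclin E2, was at 41.1, 31.1 and 36.6 in ND and 87.5, 92.4 and 111 in MCDHFD, again with no overlap (log2 fold change 1.39, SE 0.19, limma adjusted p = 0.000231). The other cyclin E gene, Ccne1, moved less, from 114, 134 and 174 to 204, 222 and 271, and its closest values on the diets were ND replicate 3 and MCDHFD replicate 1 (log2 fold change 0.73, SE 0.18, limma adjusted p = 0.00624). The ratio of Ccne2 to Ccne1 counts was 0.268 ± 0.082 in ND and 0.418 ± 0.010 in MCDHFD (mean ± SD, n = 3), with every MCDHFD library above every ND library. E2f1, an activator of S phase genes, went from 109, 141 and 122 to 160.00, 206 and 201 (log2 fold change 0.61, SE 0.15, limma adjusted p = 0.00725). Without MCDHFD replicate 1 the log2 fold changes of these genes were 2.19 for E2f8, 1.46 for Ccne2, 0.82 for Ccne1 and 0.72 for E2f1.

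The replicative helicase did not rise with them, except where scaling to equal CD8 T cell markers raised the whole transcriptome. Of 9 genes for the helicase and its loading, 1 rose, 3 fell and 5 did not pass, with a median log2 fold change of -0.11. The share that fell, 33.3%, was near the 28.1% of all tested genes that fell. Those that fell were 3 of the 6 subunits of the MCM ring, Mcm4, Mcm5 and Mcm6, and under scaling to equal CD8 T cell markers all 3 turned above 0 (log2 fold changes 0.86, 0.71 and 0.82, each below the 1.04 of the median gene there). Mcm5 stood at 1129.7, 1266 and 1121 normalized counts in ND and 855, 910.1 and 1047 in MCDHFD (log2 fold change -0.33, SE 0.09, limma adjusted p = 0.0109). Mcm6 stood at 1723, 1728 and 1651 in ND and 1394, 1473 and 1504 in MCDHFD (log2 fold change -0.22, SE 0.05, limma adjusted p = 0.00707). In both genes the diets did not overlap, and the shift was a small share of the level. Mcm4, at 1632, 1517 and 1635 in ND and 1406, 1421 and 1396 in MCDHFD, was called with all 6 libraries (log2 fold change -0.18, SE 0.05, limma adjusted p = 0.0194). That call depended on single libraries. Its adjusted p was 0.0565 without ND replicate 1, 0.0688 without ND replicate 3 and 0.0566 without MCDHFD replicate 3, and edgeR and DESeq2 on the recovered reads of 5 libraries did not call it either.

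The other subunits of the ring did not pass. Mcm2 stood at 1318 ± 35.9 normalized counts in ND and 1379 ± 74.9 in MCDHFD (95% interval of the log2 fold change -0.07 to 0.20) and Mcm7 at 1358 ± 101 and 1397 ± 32.7 (-0.11 to 0.19). Mcm3, at 1203 ± 66.2 and 1079 ± 157 (interval -0.39 to 0.06), passed without MCDHFD replicate 3 (log2 fold change -0.28, limma adjusted p = 0.0192). Summed over the 6 subunits, the ring was at 8210.4, 8538 and 8292 normalized counts in ND and 7260.2, 7667 and 8043 in MCDHFD. The lowest ND sum was above the highest MCDHFD sum, by a gap smaller than the range within MCDHFD. Of the loading and helicase partners, Cdc6, which brings the MCM ring to origins, rose from 116, 85.6 and 64.3 to 129, 170.03 and 218 (log2 fold change 0.96, SE 0.25, limma adjusted p = 0.00919). Cdc45, which travels with the active helicase, was at 83 ± 6.25 in ND and 78 ± 18.1 in MCDHFD and did not pass (interval -0.56 to 0.34). Gins2, a subunit of the GINS complex of the same helicase, was at 62.3 ± 15.9 and 75.5 ± 17.8 (interval -0.28 to 0.83).

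Of the 4 nucleotide enzymes 3 rose, and the other one, Tyms, and the sliding clamp Pcna did not pass. Rrm2, the regulated subunit of ribonucleotide reductase and limiting for deoxynucleotides, stood at 242, 268 and 235 normalized counts in ND and 462, 683 and 601 in MCDHFD (log2 fold change 1.21, SE 0.14, limma adjusted p = 9.08e-05). Rrm1, its large subunit, was at 903, 961 and 854 and 1133, 1302 and 1342 (log2 fold change 0.47, SE 0.08, limma adjusted p = 0.000919). Both genes were higher in every MCDHFD library, and the ratio of Rrm2 to Rrm1 counts went from 0.274 ± 0.006 in ND to 0.460 ± 0.059 in MCDHFD without overlap. Tk1, the thymidine kinase of S phase, rose from 124, 149.8 and 135 to 237, 343 and 309.8 (log2 fold change 1.10, SE 0.15, limma adjusted p = 0.000264). Pcna, the clamp that holds DNA polymerase on its template, was at 1851, 1742 and 1665 in ND and 1729.9, 1895 and 1947 in MCDHFD, and the diets overlapped (log2 fold change 0.08, 95% interval -0.07 to 0.23, limma adjusted p = 0.308). Per kilobase of exon Pcna had the highest level of all 43 members on both diets, 730.3 ± 39 and 774 ± 47.3 normalized counts per kb. The ratio of Rrm2 to Pcna counts was 0.142 ± 0.012 in ND and 0.312 ± 0.047 in MCDHFD. Tyms, thymidylate synthase, ranged from 120.4, 97.3 and 87.1 in ND to 70.6, 129 and 171 in MCDHFD. The MCDHFD libraries spanned the ND values, and the log2 fold change of 0.20 did not pass (limma adjusted p = 0.585). It was 0.56 without MCDHFD replicate 1 (limma adjusted p = 0.0429) and -0.08 without MCDHFD replicate 3.

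The mitotic cyclins and their kinase rose together, 4 of 4, each by at least 2-fold (median log2 fold change 1.15). Cdk1, the kinase that drives entry into mitosis, stood at 68.5, 76.9 and 52.5 normalized counts in ND and 148, 144 and 173 in MCDHFD (log2 fold change 1.24, SE 0.17, limma adjusted p = 0.000319). Ccnb1, cyclin B1 and a partner of CDK1, was at 29.4, 53.5 and 44.5 and 78.1, 107 and 116 (log2 fold change 1.25, SE 0.26, limma adjusted p = 0.00276). Ccnb2, cyclin B2, was at 101, 124 and 86.1 and 182, 221 and 233 (log2 fold change 1.03, SE 0.16, limma adjusted p = 0.00063). In all 3 genes the lowest MCDHFD library was above the highest ND library. Ccna2, the cyclin A of S phase and G2, was at 192, 246 and 209 in ND and at 323, 571 and 491 in MCDHFD, where replicate 1 lay nearer to the ND libraries than to the other MCDHFD ones (log2 fold change 1.06, SE 0.20, limma adjusted p = 0.00157). Without that replicate its log2 fold change was 1.30, and that of Ccnb1 1.41. The promoter of Cdk1 printed above is the only one among the G2/M members with E2F letters in its window.

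Both cofactors of the anaphase-promoting complex, the ubiquitin ligase that ends mitosis, rose as well. Cdc20, which activates the complex, was at 172, 203 and 195 normalized counts in ND and 246, 327 and 324 in MCDHFD (log2 fold change 0.64, SE 0.13, limma adjusted p = 0.00314). Ube2c, the ubiquitin-conjugating enzyme that works with it, was at 135, 128 and 137 and 193, 299.8 and 289 (log2 fold change 0.93, SE 0.17, limma adjusted p = 0.00134). For both, MCDHFD replicate 1 stood between the ND libraries and the other MCDHFD libraries.

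Of the mitotic kinases and the chromosomal passenger complex, 4 of 5 rose and 1 did not pass, with a median log2 fold change of 0.60. Aurkb, the kinase of the passenger complex that corrects faulty spindle attachments, was at 77.3, 81.7 and 101 normalized counts in ND and 116, 144 and 151 in MCDHFD (log2 fold change 0.66, SE 0.16, limma adjusted p = 0.00787). Its partner Birc5, survivin, was at 122, 139 and 114 and 166, 217 and 194 (log2 fold change 0.61, SE 0.14, limma adjusted p = 0.00507). Plk1, a kinase of mitotic entry and spindle assembly, was at 119, 131 and 133 and 152, 207 and 230.4 (log2 fold change 0.60, SE 0.16, limma adjusted p = 0.012). None of these 3 overlapped between the diets, and all kept their calls in each fit with a library left out. Cdca8, borealin, the targeting subunit of the passenger complex, stood at 109.6, 92.4 and 131 in ND and 143, 218 and 142 in MCDHFD (log2 fold change 0.58, SE 0.20, limma adjusted p = 0.035). That call was lost without ND replicate 1 (limma adjusted p = 0.0769), without ND replicate 2 (0.114) and without MCDHFD replicate 2, the library with its highest value (0.112, log2 fold change 0.37). Aurka, the kinase of centrosomes and spindle poles, was at 93, 125 and 90.1 and 98.8, 129 and 128, overlapped between the diets and did not pass (interval of the log2 fold change -0.20 to 0.61).

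The spindle checkpoint kinases, which hold anaphase until all chromosomes are attached, differed in call. Bub1b, which encodes BubR1, was at 198, 211 and 223 normalized counts in ND and 232, 277 and 315 in MCDHFD (log2 fold change 0.37, SE 0.13, limma adjusted p = 0.0317). Leaving out 1 library ended the call in 4 of 6 cases, with limma adjusted p of 0.0917 without ND replicate 1, 0.0699 without ND replicate 2, 0.0775 without MCDHFD replicate 2 and 0.111 without MCDHFD replicate 3. Bub1, the kinase that recruits it to kinetochores, was at 81.3 ± 18.4 in ND and 92.3 ± 17.6 in MCDHFD and did not pass (interval of the log2 fold change -0.31 to 0.69). Whether the changes of Bub1 and Bub1b differ was not tested, and their intervals overlap.

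Spindle motors and microtubule proteins rose in 2 of 6 genes and 4 did not pass, with a median log2 fold change of 0.34. Kif11, the kinesin that pushes spindle poles apart, was at 273, 250.01 and 234 normalized counts in ND and 318, 378 and 377 in MCDHFD (log2 fold change 0.50, SE 0.11, limma adjusted p = 0.0032). Tacc3, which binds spindle microtubules, was at 281, 215 and 256 and 365, 371 and 314 (log2 fold change 0.48, SE 0.12, limma adjusted p = 0.00781). It is 1 of the 5 members whose lowest MCDHFD library was not replicate 1. The spindle assembly factor Tpx2 was at 189, 183 and 187 in ND and 189, 258 and 289 in MCDHFD. Its diets did not overlap, by a margin of under 1 normalized count at MCDHFD replicate 1, and it did not pass (log2 fold change 0.37, SE 0.15, limma adjusted p = 0.0632). Nusap1, which bundles spindle microtubules, was at 139, 137 and 129 and 131, 189 and 192, and Kif20a, a kinesin of cytokinesis, at 163, 163 and 161 and 144, 241 and 206. In both, MCDHFD replicate 1 was within or below the ND values and the other MCDHFD libraries were above them. Without MCDHFD replicate 1 these 3 genes passed, with log2 fold changes of 0.55 for Tpx2, 0.50 for Nusap1 and 0.45 for Kif20a and limma adjusted p of 0.00331, 0.00886 and 0.0135. Stmn1, stathmin, which destabilises microtubules, was at 256 ± 5.48 in ND and 228 ± 46.2 in MCDHFD (log2 fold change -0.18, interval -0.51 to 0.14) and did not pass. It passed without MCDHFD replicate 2 (-0.33, limma adjusted p = 0.0452) and, in the opposite direction, under scaling to equal CD8 T cell markers (0.85, limma adjusted p = 0.00115).

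Cenpa, the histone H3 variant that marks centromeres, fell and was the only G2/M member to do so with all 6 libraries under the authors' scaling. It stood at 2557, 2269.6 and 2213 normalized counts in ND and 1039.99, 988 and 1029 in MCDHFD, from 2347 ± 184 to 1019 ± 27.6 (mean ± SD, n = 3; log2 fold change -1.20, SE 0.07, limma adjusted p = 1.14e-06). The lowest ND library was over 2-fold above the highest MCDHFD library, and MCDHFD replicate 1 was the highest of its diet. Per kilobase of exon it was at 400.4 ± 31.5 in ND, rank 3 of the 43, and at 174 ± 4.70 in MCDHFD, rank 11. Leaving out single libraries gave log2 fold changes of -1.24 to -1.14. With CD8 T cell markers scaled equal its log2 fold change was -0.16 and no longer passed (limma adjusted p = 0.0737), where the median gene was at 1.04. The kinetochore motor Cenpe and the kinetochore protein Cenpf, which act on the same structure in mitosis, did not pass. Cenpe was at 195 ± 12.7 in ND and 184 ± 16.1 in MCDHFD (interval of the log2 fold change -0.34 to 0.17) and Cenpf at 151 ± 32 and 170.2 ± 27.6 (interval -0.25 to 0.61), and neither interval reaches the change of Cenpa. The ratio of Cdk1 to Cenpa counts was 0.028 ± 0.005 in ND and 0.152 ± 0.014 in MCDHFD.

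The chromosome proteins split. Mki67, which encodes the proliferation antigen Ki-67 that coats mitotic chromosomes, stood at 1414, 1214 and 1274 normalized counts in ND and 2368, 2890.5 and 3242 in MCDHFD (log2 fold change 1.11, SE 0.11, limma adjusted p = 3.65e-05). Top2a, the topoisomerase that untangles sister chromatids, stood at 999, 909.6 and 857 in ND and 652, 888 and 973 in MCDHFD, with the diets overlapping (log2 fold change -0.16, 95% interval -0.47 to 0.16, limma adjusted p = 0.361). These are both widely read as proliferation markers, and the interval of Top2a lies wholly below that of Mki67 (0.86 to 1.37). The ratio of Mki67 to Top2a counts was 1.41 ± 0.08 in ND and 3.40 ± 0.20 in MCDHFD, and at 3.63 it was highest in MCDHFD replicate 1, the library with the lowest MCDHFD value of both genes. Without that replicate the log2 fold changes were 1.24 for Mki67 and 0.01 for Top2a. Hmgb2, a DNA-bending protein of dividing cells, was at 1086 ± 38.1 and 1105 ± 67.7 and did not pass (interval -0.12 to 0.17).

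Genes of the highest level mostly did not rise under the authors' scaling. Of the 10 with the highest mean per kilobase of exon over all 6 libraries (Pcna, Hmgb2, Cenpa, Mki67 and the 6 MCM subunits, 194 to 752 normalized counts per kb), 1 rose, 4 fell and 5 did not pass, with a median log2 fold change of -0.07. Of the other 33 (10.4 to 149.8 normalized counts per kb), 21 rose, none fell and 12 did not pass, with a median of 0.58. The 4 that fell include the MCM genes whose direction turns under scaling to equal CD8 T cell markers. Among all tested genes with a known exon length, 32.6% rose and 31.0% fell at or above the level of the lowest of the 10, and 29.3% rose and 26.9% fell below it. The split at 10 genes was chosen after the values were seen and is a description. It also depends on exon length, which counts every annotated exon base of a gene once over all its transcripts. Rrm1, which rose, had mean counts of 906 in ND and 1259 in MCDHFD, and Mcm5 had 1172 and 937. Rrm1 has 11012 exon bases and Mcm5 3993, and only Mcm5 is among the 10.

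**Figure D3:**
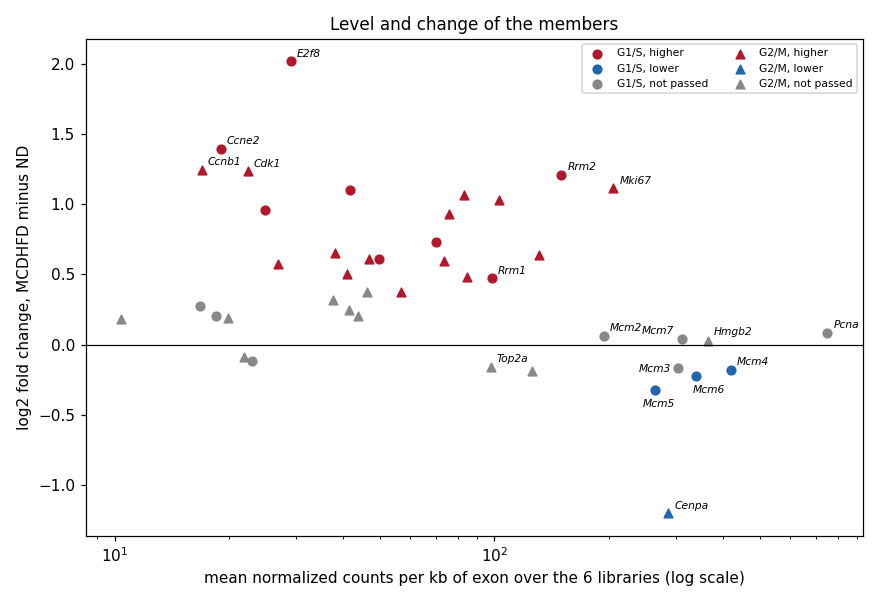
Log2 fold change of each member (y axis, MCDHFD minus ND) against its mean level over the 6 libraries (x axis, normalized counts per kb of exon, log scale). Circles are G1/S and triangles G2/M genes, coloured by call. Mki67 is the only red point among the 10 genes of the highest level, and all red points but it lie below 150 normalized counts per kb.

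Set against each other per library by means of log2 values, the phases moved by like amounts. The median log2 fold changes given above were less alike, 0.24 for G1/S and 0.48 for G2/M. The likeness thus holds for means, to which the largest changes add most. The mean of log2(normalized counts + 1) over the 18 G1/S genes was 8.29, 8.31 and 8.23 in the ND libraries and 8.50, 8.80 and 8.88 in the MCDHFD libraries. Over the 25 G2/M genes it was 7.64, 7.66 and 7.59 in ND and 7.83, 8.21 and 8.17 in MCDHFD. Each MCDHFD library was above each ND library in both phases, with replicate 1 the lowest of its diet. G2/M minus G1/S was -0.64 ± 0.01 in ND and -0.66 ± 0.06 in MCDHFD (mean ± SD, n = 3), so the difference between the diets, -0.01, was smaller than the spread between the MCDHFD libraries. It was -0.01 under quantile scaling too. TMM and equal CD8 T cell markers also gave -0.01, but they apply a factor per library that nearly cancels in this difference. Within G1/S the mean over the cyclins and E2F factors moved by 1.19 and that over the helicase genes by 0.04. Within G2/M the mean over the mitotic cyclins and CDK1 moved by 1.14 and that over the centromere proteins by -0.37. These are the highest and lowest roles of each phase. Both gaps were wider than that between the phases, but means over fewer genes can spread more.

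**Figure D4:**
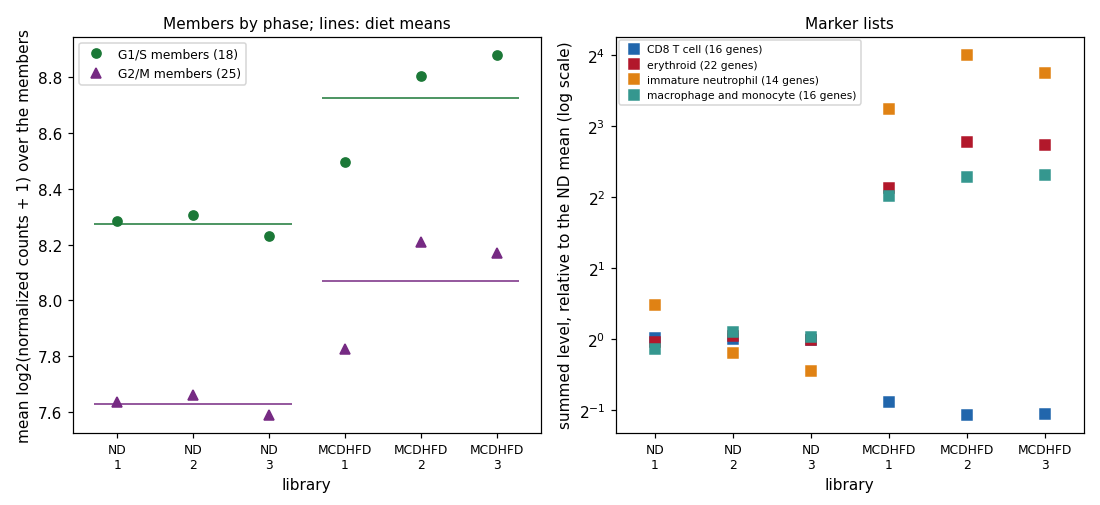
Left, the mean of log2(normalized counts + 1) over the G1/S (circles) and G2/M (triangles) genes in each library, with lines at the diet means. Right, summed levels of 4 marker lists in each library relative to their ND mean (log axis). The erythroid, immature neutrophil and macrophage lists have their lowest MCDHFD value in replicate 1, as do most members. So do the B cell, germinal centre and plasma cell lists, which are not drawn.

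Further genes of the same processes were taken from lists that exclude the members. Of 61 for G1/S and replication, 24 rose (39.3%), 16 fell (26.2%) and 21 did not pass (median log2 fold change 0.11), where 30.3% of all tested genes rose and 28.1% fell. The 3 highest were E2f2, an activating E2F, at 331, 305 and 342 normalized counts in ND and 1051, 1230.5 and 1180.1 in MCDHFD (log2 fold change 1.82, SE 0.08, limma adjusted p = 4.22e-07), Gins1, a GINS subunit (25.5 ± 6.65 to 78.8 ± 13.4, log2 fold change 1.61), and Mybl2, a factor of the late cell cycle genes (98.6 ± 29.4 to 281 ± 33.4, 1.53). The lowest were Cdc7, a kinase that fires origins (-0.92), and the primase subunit Prim1 (-0.63), and both turned above 0 under scaling to equal CD8 T cell markers. Of 80 for G2/M and mitosis, 29 rose (36.3%), 6 fell (7.5%) and 45 did not pass (median 0.32). Highest were the cytokinesis scaffold Anln (58.5 ± 6.43 to 207 ± 15.7, log2 fold change 1.81), the mitotic kinase Pbk (1.60) and Cdca3 (1.10). Lowest was Smc4, a condensin subunit, at 6567, 6272 and 6206 in ND and 3079, 2547 and 2578 in MCDHFD (log2 fold change -1.22, SE 0.08, limma adjusted p = 2.19e-06), followed by Cep55 (-1.07) and the CDK1-activating phosphatase Cdc25b (-0.42). Without MCDHFD replicate 2 or replicate 3 the number of these G2/M genes that rose was 18. Smc4 remained below 0 under scaling to equal CD8 T cell markers (-0.18), Cep55 lost its call there and Cdc25b turned above 0.

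Upstream of cyclin E, the D cyclins and their kinases moved in different directions. Ccnd1, cyclin D1, fell from 270.2, 297 and 253 normalized counts to 87.5, 107 and 69.3 (log2 fold change -1.64, SE 0.17, limma adjusted p = 4.04e-05). Cdk6, a kinase partner of the D cyclins, rose from 885, 785 and 760.1 to 1881, 2132 and 2108 (log2 fold change 1.33, SE 0.08, limma adjusted p = 1.5e-06). Ccnd2 and Cdk4 did not pass, with log2 fold changes of -0.02 and -0.09. Ccnd3 stood at 2053, 764 and 2363 in ND and 737, 2867 and 2528 in MCDHFD, with 1 library of each diet far below the others, and no direction can be read from it. Of 9 tested CDK inhibitors and pocket proteins 1 rose, Cdkn1a, which encodes p21, from 99.9, 106 and 95 to 204, 241 and 183 (log2 fold change 1.05, SE 0.13, limma adjusted p = 0.00018). Cdkn1b (0.05), Cdkn2c (0.19) and the pocket protein Rbl2 (-0.10) did not pass.

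Some values carry a limit of position. Without a stated strand setting, reads of overlapping genes cannot be told apart, and 16 members share exon bases with another gene in the GENCODE M21 annotation, 6 of them over at least 10% of their exon length. Gins2 shares 67.3% with Gse1, whose counts (1740.3 in ND on average) were far above its own, so its value is uncertain. Kif20a shares 29.3% with Cdc23, which was also the higher of the pair. Ccne2 shares 17.4% with Ints8, which was lower in MCDHFD (means of 734 and 498), against the direction of Ccne2. Ccna2 shares 12.5% with Exosc9 (means of 365 and 388). Ube2c shares 22.8% with Tnnc2 and E2f8 11.2% with Gm2788, and both partners had means under 5 normalized counts on either diet. All 6 partners lie on the opposite strand. Below that cut, Tk1 shares 1.6% with Afmid, also on the opposite strand. The means of Afmid (133 in ND and 279 in MCDHFD) were near those of Tk1 (136 and 297). How many reads these 2 genes share was not tested. Pcna, Tyms, Ccnb1, Ccnb2 and Stmn1 have named copies in the annotation, and reads split between copies could not be assessed. In mm10 coordinates, 5 of the members described above are E2f8 (chromosome 7, 48866429 to 48881596, minus strand), Mki67 (chromosome 7, 135689784 to 135716361, minus strand), Cdk1 (chromosome 10, 69335146 to 69352938, minus strand), Cenpa (chromosome 5, 30666777 to 30674830, plus strand) and Mcm5 (chromosome 8, 75109569 to 75128439, plus strand), all protein-coding.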

How the data were processed

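Per the labels, RNA of splenic CD8+ T cells was sequenced in 6 libraries, 3 per diet. The authors deposited normalized counts (a signal scale: reads per gene divided by a library factor), and per the submitters' processing notes the build was mm10. Which aligner, counter, strand setting, annotation and scaling were used is not given in these sources. In all 6 libraries 100% of the deposited signal values were whole multiples of the library's smallest value, within 0.01 of a read. Reads were recovered for 5 of them, 13188812 to 15482458 per library, and the count tests ran without ND replicate 3, whose step was too close to 1. Symbols were matched for 19202 of 19323 genes by identifier and exon lengths taken from GENCODE M21. Promoter letters came from RefSeq.

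Genes with a mean of at least 10 were tested on log2(value + 1) with limma 3.58.1 (intensity trend, diet as the only term, R 4.3.3), Benjamini-Hochberg adjusted over all 13430 at 0.05. Fold changes on that scale understate the change of low genes. The limma procedure was tested on simulated data. The alternatives were pseudocounts of 0.5 and 5, other filters, TMM, quantile and equal-marker scaling, library weights, a replicate block, each library left out, and 2 count tests on the recovered reads, edgeR 4.0.16 (3687 genes higher, 3449 lower) and DESeq2 1.42.0 (3545 higher, 3170 lower). No same-diet pair with recovered reads agreed within sampling noise (chi-square over its degrees of freedom, 6.55 to 12.5). The members and gene lists were chosen with earlier results of these data known. Named are every member, the 3 highest and 3 lowest called genes of each further cell cycle list (1 of them is not reported here), the D cyclins and their kinases, 4 CDK inhibitor and pocket genes and a few markers. The members were not replicates, and no test was made over a list.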

Additional observations from a re-analysis of the deposited data

How the results depend on the processing

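Of the 26 called members, 20 kept their call and direction in every alternative that gave a value. Counts of members that rose or fell changed by over 1.5 times only with equal CD8 T cell markers (18 and 24 higher in G1/S and G2/M, none lower, 0 and 0) and, for G2/M genes that fell, without MCDHFD replicate 2 (2). That scaling gave medians of 1.26 and 1.52, 57 and 76 further G1/S and G2/M genes higher with 0 and 1 lower, and 11195 higher and 451 lower of all genes. It turned above 0 the log2 fold changes of Cdc45 (0.91), Mcm3 (0.87), Mcm4 (0.86), Mcm5 (0.71), Mcm6 (0.82), Cenpe (0.95), Top2a (0.88), Stmn1 (0.85), Cdc7 (0.11), Prim1 (0.40), Cdc25b (0.62), Ccnd2 (1.02), Cdk4 (0.95), Rbl2 (0.93), Cd3e (0.041) and Bcl6 (0.25), as its construction raises all genes where those markers are low. Quantile scaling gave a G1/S median of 0.06, 18 further G2/M genes higher and 11 lower, and turned Mcm2 (-0.023), Mcm7 (-0.044), Hmgb2 (-0.053), Bub1 (-0.0023) and Ccnd2 (0.015), and the cause was not tested. A filter at a mean of 100, which tests fewer genes, left 17 further G2/M genes higher. Hmgb2 was at -0.0135 in edgeR and -0.0098 in DESeq2, and Bub1 at -0.0020 in edgeR.

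With 1 library left out, members that rose numbered 8 to 9 in G1/S and 12 to 17 in G2/M, and those that fell 2 to 3 and 1 to 2. Medians ran from 0.13 to 0.51 in G1/S, the highest without MCDHFD replicate 1, and from 0.37 to 0.55 in G2/M. Further G2/M genes that rose numbered 18 to 35. Log2 fold changes that changed sign in some of these fits ran from -0.26 to 0.079 for Cdc45, -0.020 to 0.076 for Mcm7, -0.077 to 0.56 for Tyms, -0.021 to 0.067 for Hmgb2, -0.27 to 0.015 for Top2a, -0.0080 to 0.32 for Bub1, -0.062 to 0.058 for Ccnd2, -0.33 to 0.80 for Ccnd3 and -0.12 to 0.16 for Cdkn1b. None of these genes was called with all 6 libraries.

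Deviations of same-numbered libraries correlated at 0.036, 0.062 and 0.0057, and those of differently numbered ones at -0.057 to 0.020. ND replicate 3 correlated best with MCDHFD replicate 1, and every other library with the one of its own number. Values this small do not decide whether replicate numbers pair the libraries. With the replicate number as a block, 8 G1/S and 13 G2/M members rose and 3 and 1 fell, the G1/S and G2/M medians were 0.24 and 0.48, and Cdca8 was the 1 member whose call was lost. Ccne2, Gins2 and Ccnb1 have the lowest mean normalized counts of the members, and how far depth sets the width of the intervals was not tested.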
